A study of Rattus norvegicus with 6 samples.

Results

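A set of 83 genes had a TPM (reads scaled for gene length and for the total of the library) of 5 or more in the circle of Willis of each of 3 rats and a ratio of aneurysm to circle of Willis of 0.5 or less in the same rat, for all 3 rats. These were 83 of the 22081 genes in the table, and of the 9331 genes with TPM of 5 or more in each circle of Willis. The values that chose them are the same TPM values given below, so that these values describe the genes. Tests of the lesion against the artery over all genes, given further on, include them, and no such test is used as support for the set. Genes whose names start with Kcn, Col, Wnt, Fzd, Sfrp, Sema, Eph or Efn, or with Nr and a digit, were left out, which removed 3 genes that passed the values, Wnt16, Nr3c2 and Col4a6. Among all genes at this level, 0.922% (86 of 9331) had a ratio of 0.5 or less in every animal, and in the other direction 45 of 8756 genes with TPM of 5 or more in each lesion (0.514%) had a circle of Willis at or below 0.5 of the lesion in every animal.

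The lesion was an unruptured rupture-prone intracranial aneurysm (IA), dissected at the anterior or posterior communicating artery from female Sprague Dawley rats, and was set against what remained of that animal's circle of Willis (n = 3 each, 6 RNA-seq libraries). Both tissues came from rats that had undergone removal of both ovaries and ligation of the left carotid, right external carotid, right pterygopalatine and left renal arteries. All were fed a diet containing 8% sodium chloride, together with 3-aminopropionitrile at 0.12% to inhibit the lysyl oxidase that cross-links collagen and elastin. The paper's RNA methods and Results give day 63 after surgery for the tissue, whereas its animal methods give an earlier day for RNA sequencing. No unoperated artery was part of the comparison, so that the circle of Willis is hypertensive artery outside the dissected lesion and not healthy artery. The paper states that nearly all rats of this model also form aneurysms, which never rupture, where the anterior cerebral and olfactory arteries branch. Whether the remaining circle of Willis held such aneurysms is not stated. Both tissues are bulk, so fewer cells of a type and less RNA per cell cannot be told apart.

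The libraries held between 65823027 and 70705938 counts. The circle of Willis carried smooth muscle RNA, with 2731, 1773 and 4548 TPM of Acta2, the smooth muscle actin, in animals 1, 2 and 3. It also carried RNA of the arachnoid, as Ptgds, a prostaglandin D synthase abundant in the leptomeninges, made up 2.41% to 10.7% of all TPM in the lesions, against 8.51% to 13.2% in the circle of Willis. Several libraries stood apart. The lesion of animal 2 had 13029 TPM of Ttr, the transthyretin of the choroid plexus, against 68.0 TPM in its circle of Willis. The summed oligodendrocyte markers of this lesion, Cldn11 among them, reached 4595 TPM, against 588 TPM in the circle of Willis. The lesion of animal 3 had the lowest sum of smooth muscle contractile markers, 6552 TPM, and its circle of Willis the highest, 27091 TPM. The lesion of animal 1 was the one with the least leukocyte RNA, 3559 TPM summed over 15 markers, against 2645 TPM in its circle of Willis, while the lesions of animals 2 and 3 had 6730 and 13023 TPM, against 1550 and 2852 TPM. The part of these differences in the levels below was not tested. With both limits, level and ratio, applied to 2 animals alone, 322 genes met the rule in animals 2 and 3, 187 in animals 1 and 3 and 125 in animals 1 and 2, the 83 among them each time.

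The wall of a cerebral artery is made of an endothelium, a media of contractile smooth muscle cells and a thin adventitia, and at the base of the brain it lies in the subarachnoid space, sheathed by leptomeningeal cells. Smooth muscle tone is set by membrane potential, calcium entry and cyclic GMP, while the barrier cells of the arachnoid are known for organic ion transporters, retinoic acid synthesis and a set of transcription factors shared with the neural crest derived mesenchyme. In the account below the 3 values of a group are given in the order animal 1, animal 2 and animal 3, and gene positions are those of the Rnor6 annotation in the deposited table.

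Timp3, a matrix-bound inhibitor of metalloproteinases, was the most abundant of the 83 genes (chromosome 7, 23544215 to 23594133, minus strand). It had 197, 192 and 98.1 TPM in the lesions, against 471, 548 and 355 TPM in the circle of Willis. The groups did not overlap, which the rule favours. This held for 79 of the 83 genes, against 11.7% of all genes at this level. The mean log2 ratio was -1.54 ± 0.17 (SE, n = 3). As the rule held each ratio at 0.5 or less, this SE and that of Tfap2b below describe the spread of chosen values only. Timp3 overlaps Syn3 on the opposite strand, which averaged 0.540 TPM in the circle of Willis.

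Slc13a4, a sodium-coupled sulfate carrier (chromosome 4, 62797677 to 62840357, minus strand), had 222, 112 and 66.7 TPM in the lesions, against 449, 493 and 208 TPM in the circle of Willis. The highest lesion, that of animal 1, lay above the lowest circle of Willis, that of animal 3, so that the groups overlapped although each lesion lay below its own artery. Zic2, a zinc finger transcription factor of the developing brain and its coverings, had 54.8, 61.5 and 27.4 TPM in the lesions, against 139, 177 and 73.8 TPM in the circle of Willis. Its 3 ratios, 0.395, 0.348 and 0.372, were close to each other. Abat, the transaminase that degrades the transmitter GABA, had 31.3, 47.9 and 21.6 TPM in the lesions, against 112, 174 and 69.5 TPM in the circle of Willis. Its ratios were likewise even, 0.279, 0.276 and 0.311. Alcam, an adhesion molecule of the immunoglobulin superfamily, had 48.8, 46.4 and 33.99 TPM in the lesions, against 107, 173 and 70.6 TPM in the circle of Willis.

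Uneven ratios were seen for Aldh1a1, which makes retinoic acid. It had 33.4, 13.03 and 4.89 TPM in the lesions, against 80.0, 109 and 50.7 TPM in the circle of Willis, ratios of 0.418, 0.119 and 0.0966. Slc47a1, which extrudes organic cations, had 24.9, 23.8 and 31.6 TPM in the lesions, against 59.1, 93.5 and 86.8 TPM in the circle of Willis. Synpo2, an actin-binding protein of smooth and striated muscle, had 28.8, 23.01 and 7.16 TPM in the lesions, against 59.3, 48.7 and 97.6 TPM in the circle of Willis. Its ratio in animal 3, 0.0733, was far below those in animals 1 and 2, 0.486 and 0.473, and animal 3 was also the animal in which the smooth muscle markers differed most. Ehd3, an ATPase of endosome recycling, Pygb, the brain form of glycogen phosphorylase, and Mgat3, which adds the bisecting sugar of N-glycans, had ratios between 0.305 and 0.411 in all 3 animals. Pygb overlaps Abhd12 on the opposite strand, a gene that averaged 94.4 TPM in the circle of Willis. Hlf, a transcription factor of the proline and acidic rich family tied to the clock, had 22.1, 20.9 and 7.98 TPM in the lesions, against 63.3, 81.4 and 29.8 TPM in the circle of Willis.

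**Figure D1:**
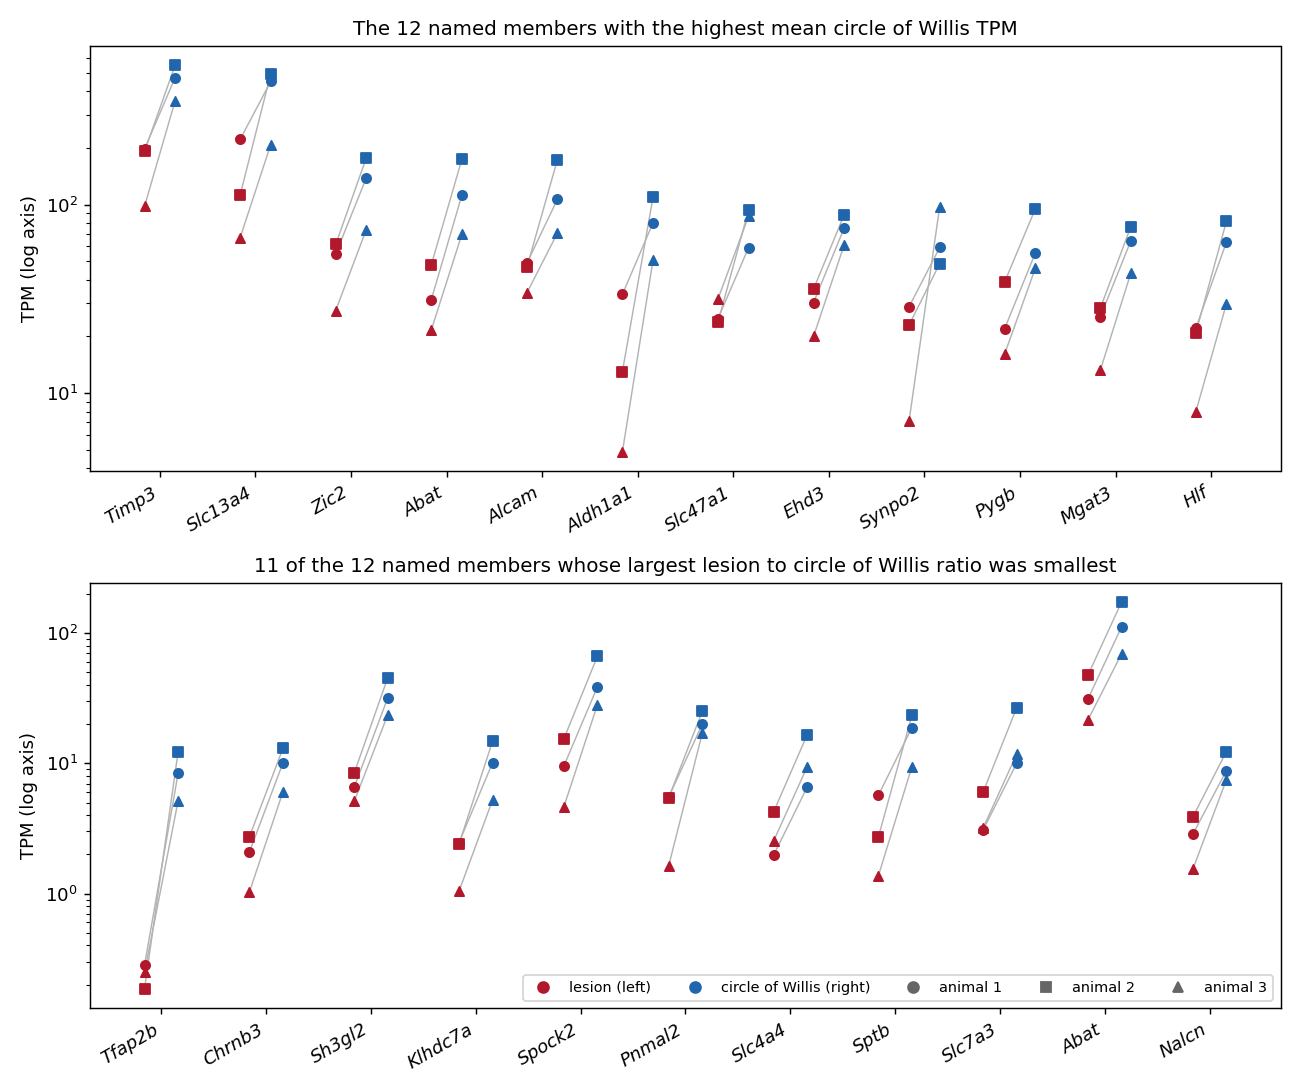
TPM on a log axis of the 12 named genes with the highest mean level in the circle of Willis (upper panel) and of 11 of the 12 whose largest ratio was smallest (lower panel), in each lesion (red, left) and circle of Willis (blue, right), with a grey line joining the libraries of 1 animal. Each line goes up towards the circle of Willis, and Tfap2b sits between 0.186 and 0.283 TPM in the lesions, against 5.16 to 12.3 TPM in the circle of Willis.

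Nuclear factors numbered 8 and had median ratios of 0.357, 0.311 and 0.320. Tfap2b, an AP-2 factor of the neural crest (chromosome 9, 25410669 to 25440411, plus strand), had 0.283, 0.186 and 0.248 TPM in the lesions, against 8.39, 12.3 and 5.16 TPM in the circle of Willis. The lesion level was thus 0.0337, 0.0152 and 0.0481 of that in the artery, and the mean log2 ratio was -5.10 ± 0.49 (SE, n = 3). Eya1, a coactivator with phosphatase activity, had 5.46, 5.88 and 4.36 TPM in the lesions, against 16.4, 21.5 and 8.84 TPM in the circle of Willis. Foxd2, a forkhead factor, had 7.38, 5.63 and 4.11 TPM in the lesions, against 15.99, 13.2 and 10.5 TPM in the circle of Willis. Jade2, part of a histone acetyltransferase complex, and Mn1, a transcriptional coregulator, were also among them, as were Zic2 and Hlf above.

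Carriers and channels were the largest group by role, with 13 genes and median ratios of 0.396, 0.287 and 0.269. Of 166 solute carriers with TPM of 5 or more, 7 (4.22%) were among the 83, against 0.922% of all genes. Slc24a3, a potassium-dependent sodium and calcium exchanger, had 18.8, 18.6 and 9.81 TPM in the lesions, against 47.5, 65.0 and 24.8 TPM in the circle of Willis. Slc4a4, the electrogenic sodium bicarbonate cotransporter, had 1.97, 4.23 and 2.53 TPM in the lesions, against 6.55, 16.5 and 9.40 TPM in the circle of Willis. Its ratios of 0.30, 0.256 and 0.269 were among the most even of the set. Slc7a3, a carrier of cationic amino acids such as arginine, had 3.10, 6.05 and 3.20 TPM in the lesions, against 10.1, 26.8 and 11.8 TPM in the circle of Willis. Slc25a23, a calcium-sensitive ATP carrier of the mitochondrial inner membrane, had ratios of 0.470, 0.369 and 0.151. Slc6a17, a vesicular carrier of neutral amino acids, had ratios of 0.483, 0.219 and 0.148. In both the ratio of animal 3 was the lowest. The solute carriers with the highest mean log2 ratio outside the set were Slc16a3, a lactate exporter, with 9.43, 131 and 32.4 TPM in the lesions, against 7.34, 8.69 and 8.68 TPM in the circle of Willis, and Slc11a1, a metal carrier of phagocytes, both with higher values in every lesion than in its circle of Willis.

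The channel genes encoded cation channels or their subunits. P2rx1, the ATP-gated channel through which sympathetic nerves contract arteries, had 20.5, 10.5 and 9.54 TPM in the lesions, against 50.1, 28.8 and 94.5 TPM in the circle of Willis. Its ratio in animal 3 was 0.101, against 0.410 and 0.363 in animals 1 and 2, the same unevenness as Synpo2, and it overlaps Itgae on the same strand, which averaged 2.44 TPM in the circle of Willis. Nalcn, the sodium leak channel that sets resting potential, had 2.86, 3.88 and 1.54 TPM in the lesions, against 8.80, 12.3 and 7.50 TPM in the circle of Willis. Trpm3, a cation channel opened by heat and steroids, had 6.34, 7.03 and 2.90 TPM in the lesions, against 16.2, 23.3 and 8.03 TPM in the circle of Willis. Chrnb3, a nicotinic acetylcholine receptor subunit, was lower by a similar factor in each animal, with 2.08, 2.73 and 1.026 TPM in the lesions, against 10.1, 13.1 and 6.05 TPM in the circle of Willis. Scn2b, an auxiliary subunit of voltage-gated sodium channels, had ratios of 0.297, 0.349 and 0.337, and its groups overlapped, as the lesion of animal 2 had 13.8 TPM and the circle of Willis of animal 3 had 11.5 TPM. Asic1, an acid-sensing sodium channel, stood at the edge of the rule with a ratio of 0.499 in animal 1. In the gene ontology entries of the table, 4 of the 13 annotated genes at this level for sodium ion transmembrane transport (Slc24a3, Asic1, Scn2b and Nalcn) and 4 of 14 for cation channel activity (Trpm3, Asic1, P2rx1 and Nalcn) were members, against 0.922% of all genes at this level. Each term thus held 5.33% of the 75 members with such entries, against 0.149% and 0.160% of 8752 genes. Integral component of plasma membrane was also more frequent among the members, at 14.7% against 3.47% of the 8752 genes. So were neuron projection (9.33% against 2.50%), synapse (6.67% against 1.54%) and cell junction (6.67% against 2.15%). Other terms were less frequent, with nucleus at 18.7% against 31.99% of the 8752 genes, cytosol at 13.3% against 24.4% and mitochondrion at 2.67% against 10.3%.

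Secreted and matrix genes numbered 9 and had median ratios of 0.368, 0.294 and 0.214. Beside Timp3, Spock2, a testican proteoglycan, had 9.55, 15.5 and 4.64 TPM in the lesions, against 38.8, 66.6 and 28.2 TPM in the circle of Willis. Gpc3, a glypican that binds growth factors at the cell surface, had 10.01, 20.8 and 17.2 TPM in the lesions, against 38.4, 67.9 and 48.4 TPM in the circle of Willis. Prg4, the lubricin of joint and serosal surfaces, had 7.12, 10.3 and 5.38 TPM in the lesions, against 15.1, 35.1 and 14.4 TPM in the circle of Willis. All 3 genes were among the 79 of 83 whose groups did not overlap, which the rule favours (11.7% of all genes at this level). The other secreted genes were Ntn1, the guidance factor netrin, Ndnf and Angptl1, Itih2, a hyaluronan-binding serum protein chain, and Spx, the peptide spexin. Angptl1 had ratios of 0.459, 0.203 and 0.174, and Ntn1 of 0.334, 0.464 and 0.184. By ontology, 5 of 75 annotated members (6.67%) were assigned to the proteinaceous extracellular matrix, against 1.28% of 8752 annotated genes.

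Among receptors and signalling genes, Pde5a, the phosphodiesterase that degrades cyclic GMP in smooth muscle, had one of the steadiest levels in the artery. It had 12.9, 11.6 and 9.11 TPM in the lesions, against 33.0, 30.2 and 32.1 TPM in the circle of Willis. Hcar1, a receptor for lactate, had 23.8, 22.4 and 8.69 TPM in the lesions, against 51.4, 70.1 and 32.8 TPM in the circle of Willis. Lepr, the leptin receptor, had 8.18, 7.73 and 5.72 TPM in the lesions, against 17.2, 35.4 and 17.4 TPM in the circle of Willis. Pik3r3, a regulatory subunit of phosphoinositide 3-kinase, had 8.06, 17.6 and 7.04 TPM in the lesions, against 24.97, 39.5 and 14.3 TPM in the circle of Willis, and its groups overlapped. Popdc3, a membrane protein of the Popeye family, and Calml5, a calmodulin-like protein, completed the 6 genes.

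The 11 enzymes had median ratios of 0.399, 0.343 and 0.307. Aldh1a3, a second enzyme of retinoic acid synthesis, had 10.5, 4.20 and 5.95 TPM in the lesions, against 21.7, 28.1 and 23.6 TPM in the circle of Willis, and like Aldh1a1 its ratio was highest in animal 1. Dpp4, a cell surface dipeptidase, had 3.64, 2.38 and 2.63 TPM in the lesions, against 9.66, 9.76 and 8.16 TPM in the circle of Willis. Enzymes of sugar chains were 3 in number beside Mgat3. Chst15, which sulfates chondroitin, had ratios of 0.395, 0.342 and 0.348, Hs3st3b1, which sulfates heparan, of 0.487, 0.343 and 0.465, and Tmtc1, which attaches mannose, of 0.341, 0.436 and 0.185. The groups of Hs3st3b1 overlapped. Cds2, of phosphatidylinositol synthesis, and Fads6, a fatty acid desaturase, had ratios between 0.296 and 0.464.

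Genes of the cytoskeleton and of adhesion numbered 11. Sptb, a beta spectrin of the membrane skeleton, had 5.69, 2.72 and 1.37 TPM in the lesions, against 18.9, 23.4 and 9.45 TPM in the circle of Willis. Ank2, the ankyrin that ties channels and exchangers to spectrin, had 3.97, 5.27 and 2.09 TPM in the lesions, against 11.8, 17.9 and 7.23 TPM in the circle of Willis. Both belong to a list of 10 spectrin, ankyrin and band 4.1 genes at this level. Of its 8 other genes, 7 were also lower in the lesion in every animal, against 30.6% of all genes at this level. High shares were also seen in other lists, as given below. Add1, an adducin, is given because it had the highest mean log2 ratio of the spectrin and ankyrin list outside the set. It had 139, 127 and 117 TPM in the lesions, against 142, 156 and 125 TPM in the circle of Willis. Heg1, a receptor of endothelial junctions, had 6.09, 10.2 and 6.06 TPM in the lesions, against 12.4, 25.3 and 15.4 TPM in the circle of Willis. Afdn, the adaptor afadin of adherens junctions, had 4.73, 6.39 and 3.82 TPM in the lesions, against 11.99, 16.2 and 8.44 TPM in the circle of Willis. The groups of Sptb, Ank2, Heg1 and Afdn did not overlap. The rule favours this, which held for 79 of the 83 genes, against 11.7% of all genes at this level. Nefm, a neurofilament, and Krt19, an epithelial keratin, were the intermediate filament genes, with ratios of 0.487, 0.401 and 0.348 and of 0.383, 0.0854 and 0.176.

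Genes of membrane traffic were Ehd3, Sh3gl2, Sycn, Prrt2 and Rab11fip4. Sh3gl2, the endocytic protein endophilin A1, had 6.55, 8.44 and 5.11 TPM in the lesions, against 31.9, 45.6 and 23.7 TPM in the circle of Willis, with ratios of 0.205, 0.185 and 0.216. It was thus lower by nearly the same factor in all 3 animals. A further 12 named genes had no shared role, among them Klhdc7a with ratios of 0.243, 0.162 and 0.199, Pnmal2 with 0.276, 0.217 and 0.0960, March6, a ubiquitin ligase of the endoplasmic reticulum, with 0.343, 0.381 and 0.435, and Tmem64 with 0.493, 0.377 and 0.414. The remaining 8 genes had no gene symbol. One of them, MGC109340, named here after its values were seen, had 0 TPM in the lesion of animal 1 and 3.98 and 2.90 TPM in those of animals 2 and 3, against 8.95, 14.1 and 10.4 TPM in the circle of Willis.

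**Figure D2:**
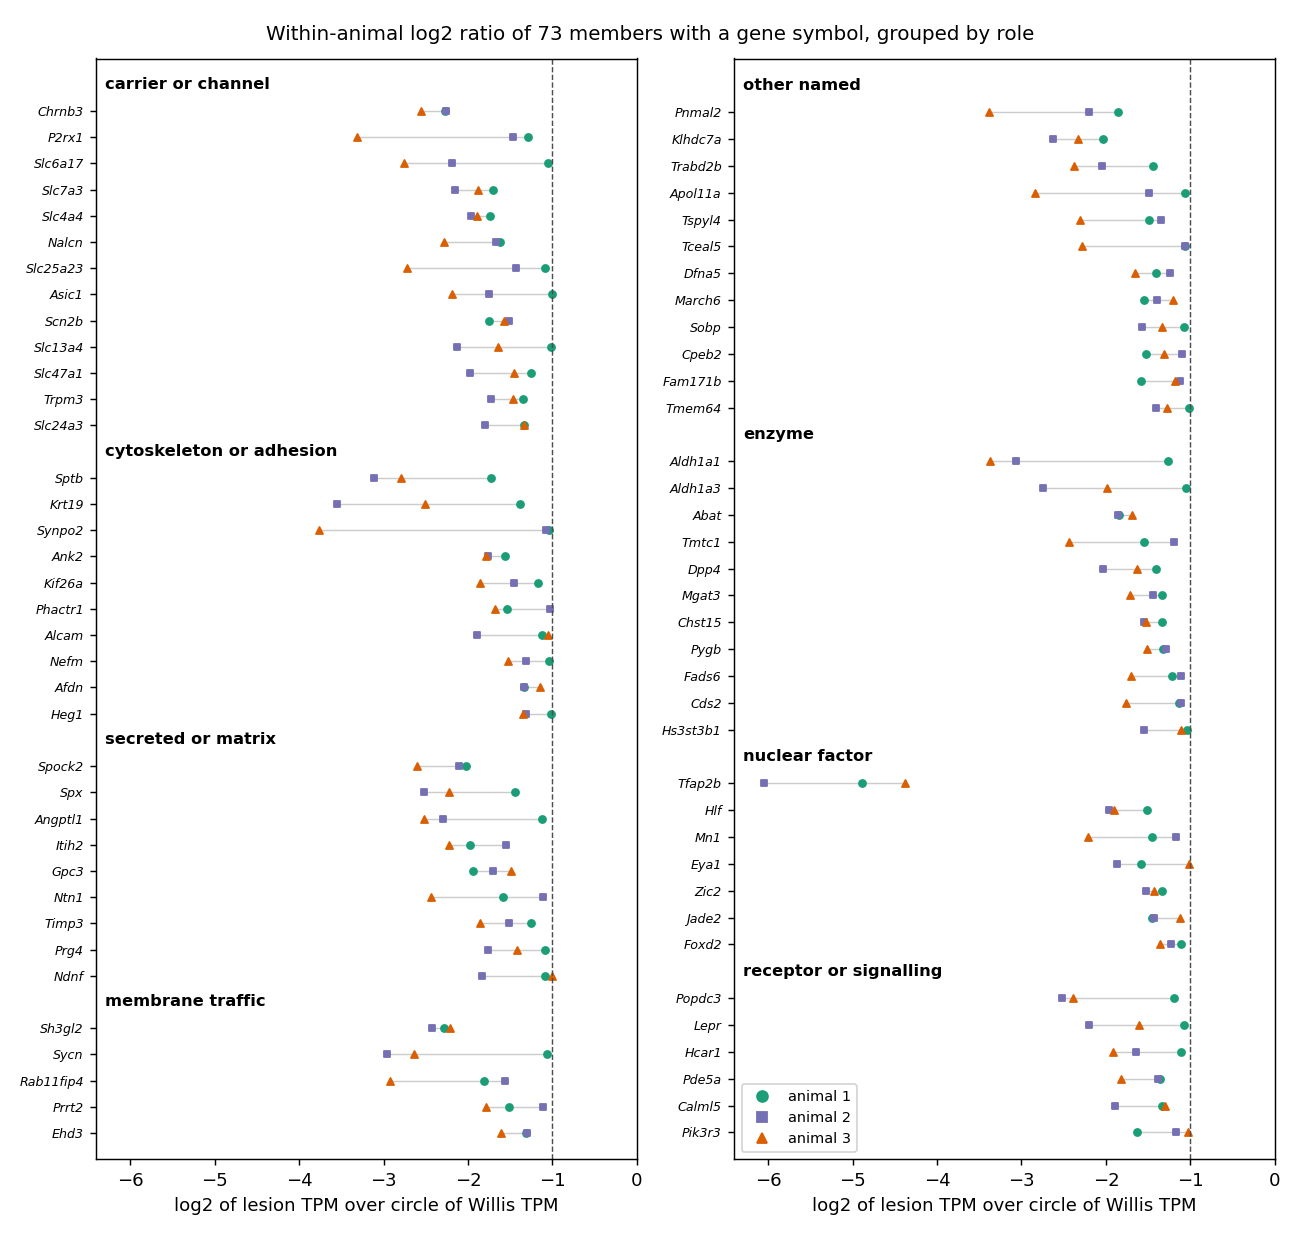
Log2 of lesion TPM over circle of Willis TPM in each animal for 73 members with a gene symbol, grouped by role, with the dashed line at a ratio of 0.5. Tfap2b lies farthest to the left, and for Synpo2 and P2rx1 the triangle of animal 3 lies apart from the other animals.

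As for cell origins, 17 of the 83 genes stood in any of 14 marker lists of cell types and 66 in none. The lists were chosen with earlier results of these data known. Their shares are therefore a description and no independent support for a cell origin. Arachnoid and meningeal markers gave the most, 10 of 27 at TPM of 5 or more (37.0%, against 0.922% of all genes), among them the transporters Slc13a4 and Slc47a1, the retinoic acid enzymes Aldh1a1 and Aldh1a3, the factors Zic2 and Foxd2, and Dpp4, Krt19 and Itih2. Of the 17 other markers of this list, 15 were lower in the lesion in every animal, against 30.6% of all genes. It was 11 of 20 for endothelium, 10 of 17 for adventitial fibroblasts and 7 of 26 for smooth muscle. The median log2 ratio over the 27 genes was -0.62, -1.59 and -1.43, against -0.09, -0.02 and -0.01 over all genes at this level. The sum of the markers without Ptgds was 5032, 3936 and 2715 TPM in the lesions, against 6557, 7992 and 4770 TPM in the circle of Willis. Ratios varied between the genes of the list. Of its markers outside the set, Cldn11 and Slc22a2 are given here because they had the highest mean log2 ratios. Cldn11, the claudin of arachnoid barrier junctions, had 272, 407 and 251 TPM in the lesions, against 279, 462 and 278 TPM in the circle of Willis, and Slc22a2, an organic cation carrier, had 46.7, 24.3 and 18.5 TPM in the lesions, against 32.3, 42.4 and 20.2 TPM in the circle of Willis. Cldn11 is also expressed by oligodendrocytes, whose markers were high in the lesion of animal 2, and it stands in that list too. In animal 2 it made up 407 of the 4595 TPM of the oligodendrocyte list in the lesion, against 462 of 588 TPM in the circle of Willis. No marker of the list was at 0 in all libraries. Slc47a1 and Zic2 had ratios of at most 0.421 in every animal, beside Cldn11 with 0.975, 0.881 and 0.903. The rule that chose the members fixed low ratios for Slc47a1 and Zic2, and Cldn11 was picked for its high ratio. The contrast between them therefore follows from the choice of genes and is no test of uneven loss within the list.

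Smooth muscle gave 2 of 28 markers at this level (7.14%, against 0.922% of all genes), Synpo2 among them. The list as a whole differed between animals, as 3, 3 and 27 of its 28 genes were at or below 0.5 in animals 1, 2 and 3, and the median log2 ratios were -0.30, 0.30 and -2.05. Its summed level was 13170, 15155 and 6552 TPM in the lesions, against 16325, 9582 and 27091 TPM in the circle of Willis. In animal 2 the contractile list as a whole was therefore not lower in the lesion. Synpo2 and P2rx1 had ratios of 0.473 and 0.363 there, but the rule that chose them fixed these at 0.5 or less. Synm, a gene outside the set and 1 of the 3 list genes at or below 0.5 in animal 2, had 0.284. Actg2, the enteric form of smooth muscle actin, is given because it had the highest mean log2 ratio of the list outside the set. It had 171, 635 and 172 TPM in the lesions, against 243, 137 and 373 TPM in the circle of Willis.

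The other lists gave few members by number, and their shares stand against 0.922% of all genes at this level. Endothelium gave Heg1 of 21 markers (4.76%). Its sum was 1166, 805 and 736 TPM in the lesions, against 1308, 1391 and 1477 TPM in the circle of Willis. Adventitial fibroblasts gave Prg4 and Angptl1 of 19 (10.5%). Their sum was 1703, 2367 and 1696 TPM in the lesions, against 2319, 3270 and 2527 TPM in the circle of Willis. Neurons gave Nefm of 4 (25%) and astrocytes Slc4a4 of 9 (11.1%), shares that rest on 1 gene each. Pericyte, oligodendrocyte, choroid plexus, striated muscle, Schwann cell, mast cell, resident macrophage and leukocyte lists gave 0 of 13, 4, 2, 2, 3, 2, 12 and 13. Lists this short would mostly hold 0 members at a share of 0.922% too. The pericyte, neuron, striated muscle and mast cell sums were also lower in every lesion than in its circle of Willis. The leukocyte and oligodendrocyte sums were higher in every lesion, and the share of the members in these shifts of makeup was not tested.

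**Figure D3:**
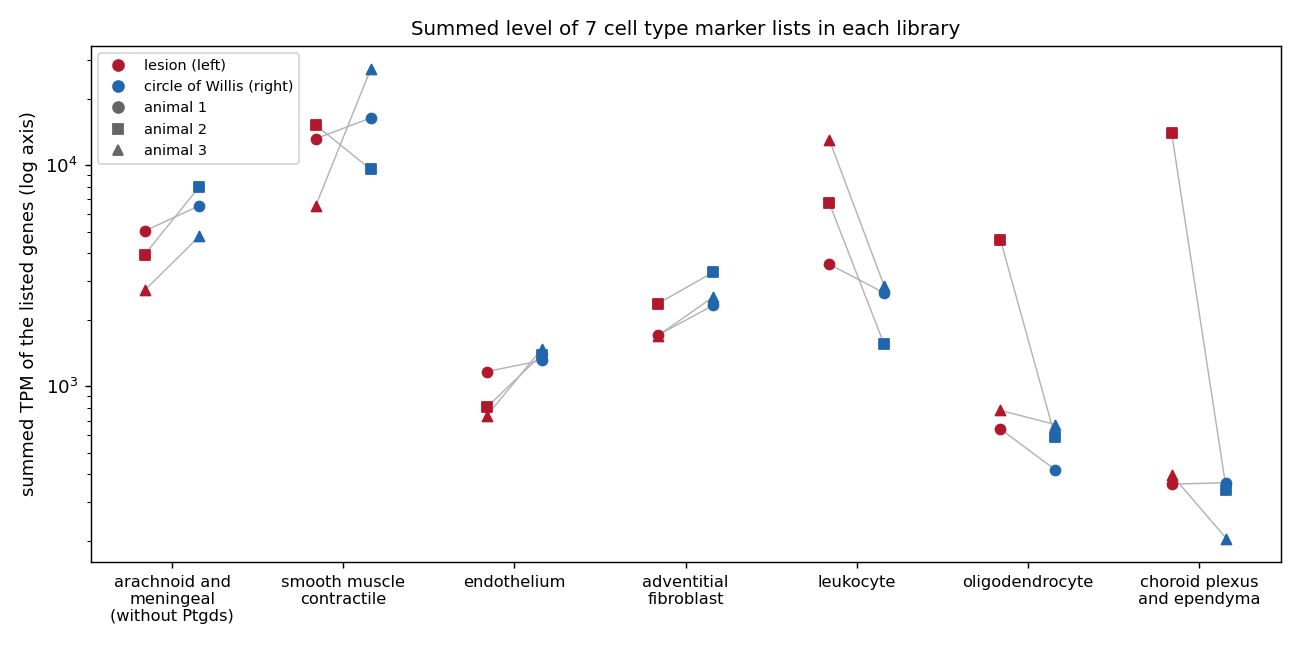
Summed TPM on a log axis of 7 marker lists in each lesion (red, left) and circle of Willis (blue, right), with a grey line joining the libraries of 1 animal. Arachnoid, endothelial and fibroblast sums were lower in all 3 lesions, as were the pericyte, neuron, striated muscle and mast cell sums, which are not drawn. Smooth muscle sums were higher in the lesion in animal 2, and leukocyte and oligodendrocyte sums were higher in all 3 lesions.

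Of 23 further lists of pathways and gene families, 13 held at least 1 member. Their shares stand against 0.922% of all genes at this level, and a share from 1 gene rests on that gene. These lists too were chosen with earlier results of these data known. Beside the spectrin and ankyrin list (2 of 10, 20%) and the solute carriers, calcium handling gave Slc24a3 and Trpm3 of 16 (12.5%). Sodium, bicarbonate and anion transport gave Slc13a4 and Slc4a4 of 18 (11.1%). Cyclic nucleotide signalling gave Pde5a of 16 (6.25%) and clock genes Hlf of 13 (7.69%). Receptors that pair with gp130 gave Lepr of 6 (16.7%) and insulin signalling Pik3r3 of 18 (5.56%). Junction scaffolds and the Hippo pathway gave Afdn of 22 (4.55%) and chromatin regulators Jade2 of 31 (3.23%). The Tmem family gave Tmem64 of 140 (0.714%) and the ubiquitin ligases March6 of 84 (1.19%), both near the share of all genes. The remaining 10 lists gave 0 members, among them 161 zinc finger genes, 95 ribosomal protein genes and 13 genes encoded by mitochondrial DNA. At a share of 0.922%, lists of these sizes would hold few members or none, so these counts do not set them apart. Within the cyclic nucleotide list, 11 of the 15 other genes were lower in every lesion, against 30.6% of all genes at this level. High shares were also seen in lists with 1 or 0 members. They were 16 of 21 for the Hippo list, 9 of 12 for clock genes, 10 of 13 for genes of mitochondrial DNA and 5 of 6 for histones. For ribosomal protein genes it was 1 of 95. Prkaca, a catalytic subunit of protein kinase A, is given because it had the highest mean log2 ratio of the cyclic nucleotide list outside the set. It had 70.1, 54.2 and 63.2 TPM in the lesions, against 66.1, 56.0 and 70.1 TPM in the circle of Willis.

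Over all genes, a quasi-likelihood fit in edgeR that blocked by animal called 0 of 15367 genes lower (0%) and 0 higher at an adjusted p of 0.05, the lowest adjusted p being 0.0976, and 1840 were lower and 1326 higher at an unadjusted p under 0.05. DESeq2 called 990 lower (6.44%) and 841 higher (5.47%). For the arachnoid and meningeal list, edgeR called 0 of 30 tested genes in either direction. Without adjustment 20 of the 30 passed p under 0.05 on the lower side and 0 on the higher, and 18 were called lower by DESeq2. For the smooth muscle list, edgeR likewise called 0 of 30, with 7 lower and 0 higher before adjustment and 7 called lower by DESeq2. These counts take in the members themselves, which were chosen on the same contrast.

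The median ratio of the 83 genes was 0.391, 0.336 and 0.283 in animals 1, 2 and 3, against 0.940, 0.989 and 0.993 for all genes at this level. Their summed level was 1221, 1173 and 647 TPM in the lesions, against 3045, 3893 and 2335 TPM in the circle of Willis. In 79 of the 83, the highest lesion lay below the lowest circle of Willis, a pattern seen in 11.7% of all genes, though the rule itself favours it. The exceptions were Slc13a4, Pik3r3, Scn2b and Hs3st3b1. The lowest of the 3 ratios was that of animal 1 for 10 genes, of animal 2 for 33 and of animal 3 for 40. In 35 genes the 3 ratios lay within 1.5-fold of each other, and in 14 they differed by over 3-fold. At or below 0.25 were 7, 23 and 31 genes in animals 1, 2 and 3, and 6 genes in every animal. The highest circle of Willis level was that of animal 2 in 65 genes (78.3%, against 45.3% of all genes at this level), and the lowest was that of animal 3 in 55. The mean level in the circle of Willis was under 10 TPM for 19 genes, 10 to under 50 TPM for 48, 50 to under 100 TPM for 11 and 100 TPM or more for 5. Counts were at least 92 in every circle of Willis, while 9 genes had under 100 counts in a lesion.

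**Figure D4:**
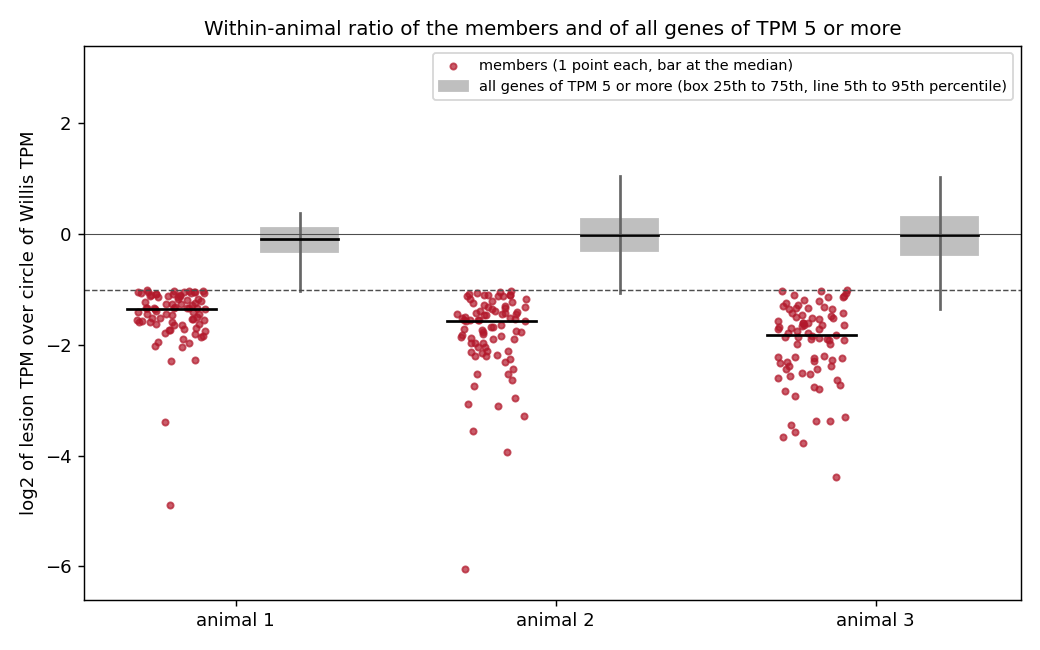
Log2 of lesion TPM over circle of Willis TPM in each animal for the members (red points, bar at the median) and for all 9331 genes with TPM of 5 or more in each circle of Willis (grey box from the 25th to the 75th percentile, line from the 5th to the 95th). The member medians are -1.35, -1.57 and -1.82, and MGC109340, with 0 counts in the lesion of animal 1, is not drawn there.

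The ratio limit can also be applied to 2 animals and the third looked at on its own. With the level limit asked of all 3 circles of Willis, as in the rule, the 86 genes halved in every animal (the 83 and the 3 left out by name) were 27.7% of 311 genes at or below 0.5 in animals 2 and 3, 45.7% of 188 in animals 1 and 3 and 78.2% of 110 in animals 1 and 2. Of all 9331 genes at this level, 5.25% were at or below 0.5 in animal 1, 5.63% in animal 2 and 8.48% in animal 3. The 86 are the same genes each time, and the level limit had used the circle of Willis of the animal looked at. With both limits asked of the 2 choosing animals only, an alternative chosen after seeing the data, 95 of 336 genes (28.3%) were at or below 0.5 in animal 1, against 5.43% of all 9527 genes at that level. In animal 2 it was 89 of 194 (45.9%), against 5.69% of 9518, and in animal 3 it was 98 of 128 (76.6%), against 8.61% of 9552. The median ratio of these genes in the animal looked at was 0.684, 0.534 and 0.349 in animals 1, 2 and 3, and 39, 9 and 0 of them lay above 1. The genes are no independent replicates, and the shares are a description.

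The rule cut through a continuous range. Just inside the limit of 0.5 lay Slc13a4, Ndnf and Asic1, with largest ratios of 0.493, 0.498 and 0.499, and just outside lay Lrp6, Bmp6 and Tmem220, with 0.503, 0.505 and 0.505. Bmp6, a bone morphogenetic protein, had 164, 156 and 85.2 TPM in the lesions, against 360, 432 and 169 TPM in the circle of Willis. At the level of 5 TPM, Tfap2b lay just inside with 5.16 TPM in its lowest circle of Willis, and Slc26a2, Nrn1 and Aff3 lay just outside with 4.80, 4.84 and 4.86 TPM. TPM is a share of each library, and with Ptgds and the mitochondrial genes left out of the total, 195 genes met the rule, the 83 among them, with the median log2 ratio of all genes then at -0.15, -0.32 and -0.26.

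The rule used neither gene position nor sequence. Gene spans had a median of 37920 bases, against 19485 bases for all genes at this level, and with the genes split by span into 5 bins of nearly equal size, members made up 1.55% of the bin with the longest spans, 1.07% of the shortest and 0.215% of the next shortest. In the longest bin the median log2 ratio of all genes was -0.26, -0.17 and -0.15, so that long genes as a whole were lower in the lesions. Members lay on 18 chromosomes besides X, with at most 11 on one, chromosome 10. Within 500000 bases of each other on chromosome 2 lay Pde5a and Synpo2 (226900619 to 227041576 on the plus strand and 227255902 to 227411964 on the minus strand), 214325 bases apart with 1 further member between them. Trabd2b and Foxd2 lay 287583 bases apart on chromosome 5. Another gene overlapped 12 of the members, in 3 cases on the same strand and in 2 of these with over 1 TPM in the circle of Willis, and the strand setting of the counting was not given.

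Promoters of 51 of the 83 genes were matched by symbol in a RefSeq table of the GRCr8 assembly, each with 250 bases before the start site and 50 after it. They were searched on both strands for CACGTG (the E-box of clock factors), TGACGTCA (the cyclic AMP response element), TTATGTAA (the site of PAR factors such as Hlf) and the CArG box of serum response factor. The shares beside them are those of the 7030 matched genes of TPM 5 or more and then of all 33469 promoters in the table, from any gene. CACGTG stood in 1 of the 51 (1.96%, against 10.2% and 6.42%), in Tceal5. TGACGTCA stood in 2 (3.92%, against 3.215% and 1.83%), in Sh3gl2 and Tspyl4, TTATGTAA in 1 (1.96%, against 0.455% and 0.893%), again in Tspyl4, and the CArG box in 1 (1.96%, against 1.37% and 1.64%), in Slc25a23. These matches are letters in a window and no measure of binding. The 4 sequences below, 5′ to 3′ on the strand of the gene, show the promoters with the cyclic AMP, PAR and CArG matches, in capitals, and that of Slc13a4, an abundant meningeal carrier with none of the 4. Positions count from the start site, with -1 just before it. The match starts at -66 in Sh3gl2 (chr5:104699020-104699319, plus strand), at -72 and, for TTATGTAA, at -209 in Tspyl4 (chr20:39653538-39653837, plus strand) and at -184 in Slc25a23 (chr9:1985316-1985615, minus strand), and Slc13a4 is at chr4:64955937-64956236, minus strand, all in GRCr8.
Sh3gl2: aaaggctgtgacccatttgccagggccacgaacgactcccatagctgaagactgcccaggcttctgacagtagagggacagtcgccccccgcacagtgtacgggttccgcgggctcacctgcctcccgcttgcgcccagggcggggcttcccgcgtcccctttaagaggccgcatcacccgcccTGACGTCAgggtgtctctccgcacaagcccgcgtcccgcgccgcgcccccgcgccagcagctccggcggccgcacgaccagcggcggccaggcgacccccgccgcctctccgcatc
Tspyl4: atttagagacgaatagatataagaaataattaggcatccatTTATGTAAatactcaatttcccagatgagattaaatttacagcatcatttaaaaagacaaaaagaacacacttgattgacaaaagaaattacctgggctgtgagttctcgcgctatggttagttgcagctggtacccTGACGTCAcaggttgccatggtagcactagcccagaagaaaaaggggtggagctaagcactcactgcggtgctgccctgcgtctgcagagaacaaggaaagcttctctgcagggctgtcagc
Slc25a23: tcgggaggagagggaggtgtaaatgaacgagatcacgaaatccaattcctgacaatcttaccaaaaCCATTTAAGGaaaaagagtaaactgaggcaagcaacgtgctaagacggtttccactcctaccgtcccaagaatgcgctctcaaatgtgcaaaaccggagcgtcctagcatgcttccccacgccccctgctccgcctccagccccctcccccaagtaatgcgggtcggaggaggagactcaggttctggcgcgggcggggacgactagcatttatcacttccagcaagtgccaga
Slc13a4: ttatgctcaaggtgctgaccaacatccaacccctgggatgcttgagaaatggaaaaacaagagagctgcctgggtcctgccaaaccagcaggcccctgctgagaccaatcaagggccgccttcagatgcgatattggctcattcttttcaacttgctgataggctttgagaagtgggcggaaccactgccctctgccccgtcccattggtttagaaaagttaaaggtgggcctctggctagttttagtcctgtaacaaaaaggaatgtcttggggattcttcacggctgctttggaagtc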

How the data were processed

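Poly(A) RNA from 3 lesions and from the rest of each animal's circle of Willis was sequenced by the authors with a stranded mRNA kit in paired reads and mapped to the rat genome Rnor6 with the CLC genomics workbench (CASAVA is named in the submitters' processing notes). The deposited table gives whole-number counts per gene, and the authors' RPKM and TPM computed from them in each library. It also holds the authors' scaled CPM, a signal on a common scale, and columns of the authors' own comparisons (fold changes and p-values), neither of which was used. TPM of the deposited table chose the members, by the rule given at the start of the report. The members, the gene lists and the roles were chosen with earlier results of these data known, so that no list is independent support.

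Counts were tested with edgeR 4.0.16 (quasi-likelihood, TMM, expression filter, Benjamini-Hochberg adjustment, animal as block) in R 4.3.3, with DESeq2 1.42.0 and limma-voom 3.58.1 as alternatives. The edgeR test was also run on simulated counts with known changes, an outcome not reported here. Those counts had a single common dispersion and no animal effect, so the run cannot check the block on paired data. The pairing comes from the animal, and the deviations of lesion and circle of Willis of 1 animal from their group means correlated at 0.479, 0.386 and 0.173. The 3 rats of a group are separate animals. Text names the 12 members with the highest mean circle of Willis TPM, the 12 whose largest ratio was smallest, and up to 4 members and up to 2 other genes of each list. Those other genes were the ones with the highest mean log2 ratio at TPM of 5 or more in each circle of Willis. It also names the genes next to the limits, families of 3 or more, and further members by role. The 8 genes without a symbol were counted, and some items are not reported here. Alternatives are given in the closing section.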

Additional observations from a re-analysis of the deposited data

How the results depend on the processing

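The count of 83 genes rests on its limits and on the scale. It was 68 with TMM-normalized CPM (64 of the 83 among them), 61 with DESeq2 size factors (59 shared), 84 with RPKM (77 shared), 67 relative to the median gene of each pair and 56 with 1 TPM added to both sides. It was 140 at TPM of 2 or more, 49 at TPM of 10 or more, 450 at any TPM above 0, 308 at a ratio of 0.667 and 13 at 0.333, and 20 with no replicate block, when the highest lesion had to be at or below 0.5 of the lowest circle of Willis. With Ptgds and the mitochondrial genes taken out of the total, an alternative chosen after seeing the data, it was 195, and with 1 animal left out it ranged from 125 to 322. The 10 arachnoid and meningeal members became 7 with TMM-normalized CPM or DESeq2 size factors, 3 with no replicate block, 1 at 0.333 and 10 to 16 with 1 animal left out, and the 2 smooth muscle members became 1 under either count scaling.

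The block changed the edgeR counts from 0 lower and 0 higher to 1 lower and 0 higher when it was left out (no replicate block), at unadjusted p under 0.05 from 1840 to 1291 lower. DESeq2 with the block called 990 lower and 841 higher, whereas limma-voom, other size factors, no filter and each animal left out gave 0 in edgeR or voom. The mean log2 ratio, whose sign the choice of members fixes, moved by more than 1 SD for 14 of 82 members when 1 TPM was added. Of the genes at or below 0.5 in animals 2 and 3, the share also so in animal 1 was 21.5% with TMM-normalized CPM and 23.3% at TPM of 10 or more. Genes under 100 counts in a lesion are the least precise.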
